A study of Homo sapiens with 6 samples.

Results

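The genes of the insulin-like growth factor (IGF) axis described here are 6 genes for IGF-binding proteins (IGFBP2 to IGFBP7), 3 receptor genes (IGF1R, IGF2R and INSR) and IRS2, the gene of a receptor substrate. They are 10 of the 58735 genes in the deposited tables, chosen by gene name, and each name matched 1 row. RNA-Seq had been performed on MCF10A, an established line of nonmalignant breast epithelial cells, kept in medium with horse serum, insulin, epidermal growth factor, cholera toxin and hydrocortisone. The siDAB2IP group had been transfected with siRNA against DAB2IP, the gene of a Ras GTPase-activating protein, and the siControl group with a pool of nontargeting siRNA. RNA was taken from both groups 48 hours later, and each group has 3 libraries. The labels give the genotype as WT for siControl and as DAB2IP knockdown for siDAB2IP. All data come from this cell line and from a single siRNA product against DAB2IP, so an effect of DAB2IP loss and an effect of these siRNA on other transcripts cannot be told apart.

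IGF1 and IGF2 are secreted growth factors that activate the receptor tyrosine kinase IGF1R, while insulin acts mainly through INSR, a close relative with which IGF1R forms hybrid receptors. Both receptors phosphorylate docking proteins such as IRS1 and IRS2, which recruit phosphoinositide 3-kinase and lead to AKT activity and to inhibition of FOXO transcription factors. IGF2R has no kinase and removes IGF2 from the cell surface for degradation. The IGF-binding proteins are secreted, hold the ligands and govern how much of them reaches the receptors, and proteases that cut them release the ligand. In the mammary gland this axis takes part in ductal growth and in the regression after lactation.

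Each library held 16353783 to 21916062 counts. Where a gene had no counts in a library, its level could still be up to 3 counts, that is 0.139 to 0.187 CPM (counts scaled to library size), by counting error alone. CPM values are scaled with the TMM factors of edgeR, adjusted p-values are from its quasi-likelihood test with Benjamini-Hochberg adjustment over 15430 genes, and a gene with an adjusted p under 0.05 is called changed. The targeted gene DAB2IP fell from 103, 94.2 and 77.4 CPM in siControl to 27.5, 25.6 and 22.4 CPM in siDAB2IP (log2 fold change −1.86, SE 0.13, adjusted p = 9.71e-05). Keratin genes of the basal mammary epithelium were abundant in both groups, and the listed mammary epithelial markers summed to 2865 to 3501 FPKM, a level scaled to gene length and library size, in siControl and to 1803 to 2262 FPKM in siDAB2IP. Of these 15 markers 12 were tested. LAMB3 rose (8.33%, where 6.55% of all genes tested rose), and KRT5, KRT14, KRT17 and KRT6A fell (33.3%, where 7.65% fell). PGR had no counts and ESR1 at most 11 in a library. The part of this shift in the results below was not tested. In bulk RNA, fewer cells that express a gene and less RNA per cell cannot be told apart. The labels do not say whether the libraries of a group came from separate cultures, so p-values measure the spread between these libraries.

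The promoter sequences of both members that fell, IGFBP2 and IRS2, are shown first. Their composition differs, and no link between promoter sequence and change was tested. The lines give the 250 bases before the RefSeq start of each gene (GRCh38.p14), 5′ to 3′ on the gene's strand. They lie at chr2:216632578-216632827 (plus strand) for IGFBP2 and at chr13:109786584-109786833 (minus strand) for IRS2, outside the exons of either gene. Capitals mark GGGCGG, the core of the GC box that SP factors bind, on either strand.
IGFBP2 promoter: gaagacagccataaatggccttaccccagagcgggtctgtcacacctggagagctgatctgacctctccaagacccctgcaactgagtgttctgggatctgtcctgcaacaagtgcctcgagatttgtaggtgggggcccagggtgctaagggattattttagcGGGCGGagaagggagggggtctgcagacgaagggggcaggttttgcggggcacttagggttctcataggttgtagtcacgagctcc
IRS2 promoter: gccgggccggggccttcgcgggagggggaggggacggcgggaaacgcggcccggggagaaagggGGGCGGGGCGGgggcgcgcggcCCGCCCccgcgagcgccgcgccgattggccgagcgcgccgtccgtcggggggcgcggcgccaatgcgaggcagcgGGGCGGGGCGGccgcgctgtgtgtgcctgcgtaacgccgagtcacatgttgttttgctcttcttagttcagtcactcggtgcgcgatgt

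The IGFBP2 window held 7 CG dinucleotides and 56.8% G or C, and the IRS2 window 42 CG dinucleotides and 76.4% G or C. The median over 35116 promoters of this length was 11 CG dinucleotides and 58.0% G or C. GGGCGG occurred once in the IGFBP2 window and 5 times in the IRS2 window, overlapping matches counted, and 42.6% of all promoters held it on some strand. For 9 of the 10 genes a RefSeq promoter was at hand, the exception being IGFBP7.

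For IGFBP6, which rose, 2 short stretches are shown because they hold the motifs of transcription factors that act below AKT or below the IKK kinases. The first lies at chr12:53097556-53097585 and has in capitals a match to the NF-κB consensus motif on the opposite strand. This match starts 101 bases before the RefSeq start. The second lies at chr12:53097471-53097497 and has in capitals a match to TGTTTAC, the FOXO motif, on the opposite strand. Both are written on the plus strand, the strand of the gene.
IGFBP6 stretch 1: cccagtttagGGAATGCCCCtgccctctcc
IGFBP6 stretch 2: aatttgggaaGTAAACAgaaactggaa
The RefSeq start of IGFBP6 lies 231 bases inside the gene as the tables give it, so 231 of the 250 window bases belong to annotated exons of other transcripts. The NF-κB motif occurred in 9.96% of all promoters and TGTTTAC in 2.98%, on either strand. Among the members, IGFBP5 also held the NF-κB motif, with 2 overlapping matches, and none of the other 8 windows held TGTTTAC. The AP-1 motif TGANTCA, held by 6.57% of promoters, occurred in none of the 9 windows. A match is a match of letters and is not evidence of binding.

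Of the 10 members 9 passed the filter on low counts, and IGFBP5 did not. Among the 9 genes tested, 2 rose (IGFBP7 and IGFBP6), where 6.55% of all genes tested rose. Likewise 2 fell (IGFBP2 and IRS2), where 7.65% of all genes tested fell. The other 5 did not pass the test, among them all 3 receptor genes. In 5 of the 9 genes (IGFBP2, IGFBP6, IGFBP7, IGF1R and IRS2) no library of one group lay within the range of the other, which held for 35.9% of all genes tested. The median log2 fold change of the 9 genes was 0.03, and that of all genes was 0.01.

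**Figure D1:**
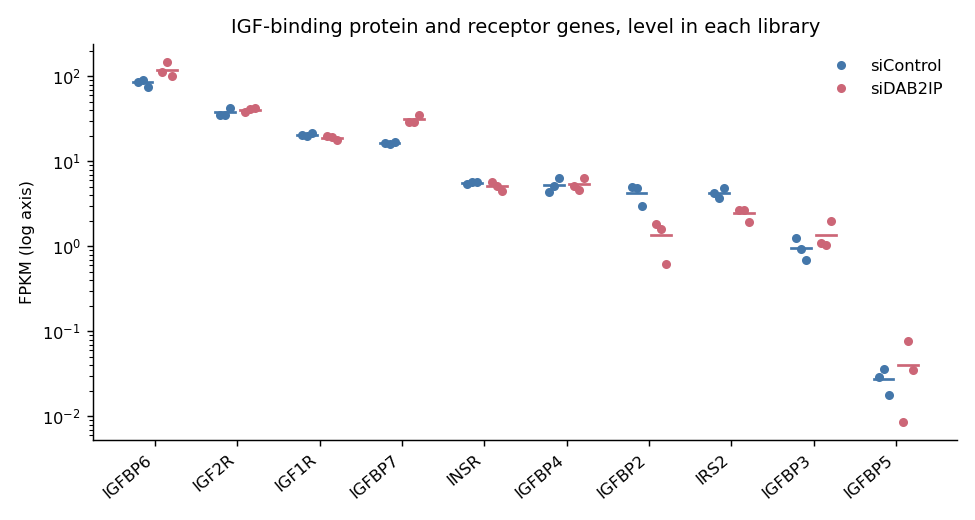
Level of each of the 10 genes in FPKM on a log axis, with a point for each library and a line at the mean of each group (blue siControl, red siDAB2IP, 3 libraries each). IGFBP6 is highest in both groups, IGFBP5 is near 0, the siDAB2IP points of IGFBP7 lie above and those of IGFBP2 and IRS2 below all siControl points.

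Levels of different genes were compared in FPKM, which accounts for gene length. That length is a single value per gene (4767 bases for IGFBP2, 1346 for IGFBP6), whichever transcripts are expressed. Levels, shares and ratios between genes are therefore approximate. In siControl, the level of IGFBP6 was highest at 84.8 ± 8.26 FPKM (SD, n = 3). It was followed by IGF2R at 37.9 ± 4.09, IGF1R at 20.7 ± 0.709 and IGFBP7 at 16.5 ± 0.611 FPKM, and the libraries of these 4 genes did not overlap between neighbours. INSR (5.62 ± 0.229 FPKM), IGFBP4 (5.29 ± 1.01), IGFBP2 (4.28 ± 1.09) and IRS2 (4.26 ± 0.544) formed a middle group in which each gene's range overlapped that of the next. IGFBP3 was lower at 0.957 ± 0.285 FPKM, and IGFBP5 lowest at 0.0275 ± 0.00895 FPKM. In siDAB2IP the order began in the same way with IGFBP6 (120 ± 24.6 FPKM) and IGF2R (40.6 ± 2.33). IGFBP7 then came before IGF1R, at 31.2 ± 3.82 against 19.0 ± 1.12 FPKM, with no overlap of their libraries. IGFBP2 moved from the middle group to 1.35 ± 0.643 FPKM, where its range overlapped that of IGFBP3 (1.36 ± 0.525), and IRS2, at 2.44 ± 0.433 FPKM, overlapped IGFBP3 as well.

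IGFBP7 encodes a secreted matrix protein that binds IGFs weakly and also binds insulin, and it had the largest rise among the members. The gene lies on the minus strand at chr4:57030773-57110385. Its level was 32.2, 30.8 and 33.3 CPM in siControl and 56.9, 56.3 and 69.6 CPM in siDAB2IP. All 3 siDAB2IP libraries lay above all siControl libraries, and replicate 3 was the highest of each group. The mean rose from 32.1 ± 1.26 to 60.9 ± 7.52 CPM (SD, n = 3), which is 1.90-fold. On the log2 scale the fold change was 0.92 (SE 0.11, 95% interval 0.67 to 1.18, adjusted p = 0.00147), the smallest adjusted p among the members. The call held when any 1 of the 6 libraries was left out, with log2 fold changes of 0.82 to 0.98.

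The 3′ end of POLR2B, a subunit gene of RNA polymerase II, overlaps that of IGFBP7 on the opposite strand by 396 bases, 270 of which are exonic in both. The strand setting of the counting is not given in the sources used here. POLR2B averaged 130 CPM in siControl and 132 CPM in siDAB2IP, and the antisense gene IGFBP7-AS1 had no counts. IGFBP7 is a marker of endothelial cells and fibroblasts as well, so their listed markers were read beside it. The 4 endothelial markers summed to 3.27 to 4.69 FPKM in siControl and to 2.08 to 2.29 FPKM in siDAB2IP, lower where IGFBP7 was higher, and KDR was called lower (adjusted p = 0.0471) with overlapping groups. The 7 fibroblast markers summed to 12.9 to 23.0 FPKM in siControl and to 11.8 to 16.7 FPKM in siDAB2IP. Of these, 3 were tested, and COL1A1 rose from 15.3 to 26.3 CPM (adjusted p = 0.0129), which is 33.3%, where 6.55% of all genes tested rose. The other 2 tested fibroblast markers were lower in siDAB2IP and did not pass, and the median log2 fold change of the 3 was −0.49. COL1A2 and COL3A1 had at most 3 counts in any library. All libraries come from the MCF10A line, so these markers are read as genes of that line and not as amounts of other cells. Any link between them and the IGFBP7 result was not tested.

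By the naming rule, the 3 tested genes with the pattern most like that of IGFBP7 over the 6 libraries were TOM1L2, REPIN1 and SLC48A1, with Pearson's r of log2 CPM of 0.999, 0.999 and 0.997. The 6 points fall into the 2 groups, so any gene with a like difference between groups has a high r. Their log2 fold changes were 0.68 for TOM1L2 (adjusted p = 0.00377), 0.31 for REPIN1 (adjusted p = 0.0465) and 0.82 for SLC48A1 (adjusted p = 0.00372). The neighbouring gene NOA1, which lies 51949 bases from IGFBP7, did not pass (log2 fold change 0.05, adjusted p = 0.803).

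IGFBP6, a binding protein with a strong preference for IGF2, was the most abundant member and rose as well. It lies on the plus strand at chr12:53097436-53102345. Its level was 119, 124 and 103 CPM in siControl and 152, 201 and 138 CPM in siDAB2IP. The groups did not overlap, although siDAB2IP replicate 2 stood well above the other two siDAB2IP libraries. The mean rose from 115 ± 11.0 to 164 ± 33.5 CPM (SD, n = 3), which is 1.42-fold, with a log2 fold change of 0.51 (SE 0.15, 95% interval 0.18 to 0.83, adjusted p = 0.0447). This call is near the threshold, and a fit blocked on replicate number gave an adjusted p of 0.00913. Without the block it was lost on leaving out any library other than siDAB2IP replicate 3 (adjusted p of 0.0657 to 0.156, log2 fold changes of 0.33 to 0.62 over all 6 omissions), and adjusted p was 0.00683 without siDAB2IP replicate 3. The neighbouring gene SPRYD3 did not pass (log2 fold change 0.19, adjusted p = 0.308), and SOAT2, which lies 1172 bases away, had 1 count over all libraries.

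IGFBP2, which binds both IGFs and through an RGD motif also integrins, showed the largest fall among the members. It lies on the plus strand at chr2:216632828-216664436, directly after the promoter window shown above. Its counts were 383, 503 and 248 in siControl and 157, 139 and 52 in siDAB2IP. On the CPM scale these are 23.9, 23.4 and 14.6 against 8.86, 7.70 and 3.01. No siDAB2IP library reached the lowest siControl library, and replicate 3 was the lowest of each group. The mean fell from 20.6 ± 5.23 to 6.52 ± 3.09 CPM (SD, n = 3), or to 31.7% of siControl. The log2 fold change was −1.66 (SE 0.33, 95% interval −2.40 to −0.91, adjusted p = 0.012). The call was lost without siControl replicate 2 (adjusted p = 0.0501) and held on each of the other 5 omissions, and leaving out single libraries gave log2 fold changes of −1.94 to −1.32.

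IGFBP5, a binding protein that is known for its rise in the regressing mammary gland, lies 7668 bases from IGFBP2 on the opposite strand, with their 3′ ends facing each other. Its position is chr2:216672105-216695525. It had 3, 5 and 2 counts in siControl and 1, 9 and 4 counts in siDAB2IP, 24 in all. The groups overlapped and most libraries were at or near the limit of 3 counts, so no fold change is given. On the other side of IGFBP2, RPL37A, a ribosomal protein gene, did not pass (log2 fold change 0.06, adjusted p = 0.824).

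IGFBP3, the main carrier of IGFs in blood, was expressed at a low level, and its libraries disagreed. It lies on the minus strand at chr7:45912245-45921874. Its level was 5.79, 4.27 and 3.17 CPM in siControl and 5.02, 4.76 and 9.10 CPM in siDAB2IP. Replicates 1 and 2 of siDAB2IP lay within the range of siControl, and replicate 3 alone lay above it. The log2 fold change was 0.51 (SE 0.30, 95% interval −0.16 to 1.19, adjusted p = 0.292), and without the replicate 3 library of each group, an alternative added after the data had been seen, it was −0.032. The neighbouring gene IGFBP1, which lies 18576 bases away and encodes a binding protein made mainly in liver, had 4 counts in all libraries together.

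IGFBP4, a binding protein that restrains IGF action until the protease PAPPA cuts it, lies on the plus strand at chr17:40443461-40457731. Its level was 9.72, 11.4 and 14.1 CPM in siControl and 11.4, 10.2 and 14.3 CPM in siDAB2IP. The ranges of the groups nearly coincided. The log2 fold change was 0.03 (SE 0.19, 95% interval −0.39 to 0.44, adjusted p = 0.947). Both protein-coding neighbours were tested. TOP2A, a topoisomerase gene of dividing cells 25510 bases away, fell (log2 fold change −1.43, adjusted p = 0.0304), and TNS4 did not pass (log2 fold change −0.29, adjusted p = 0.184).

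**Figure D2:**
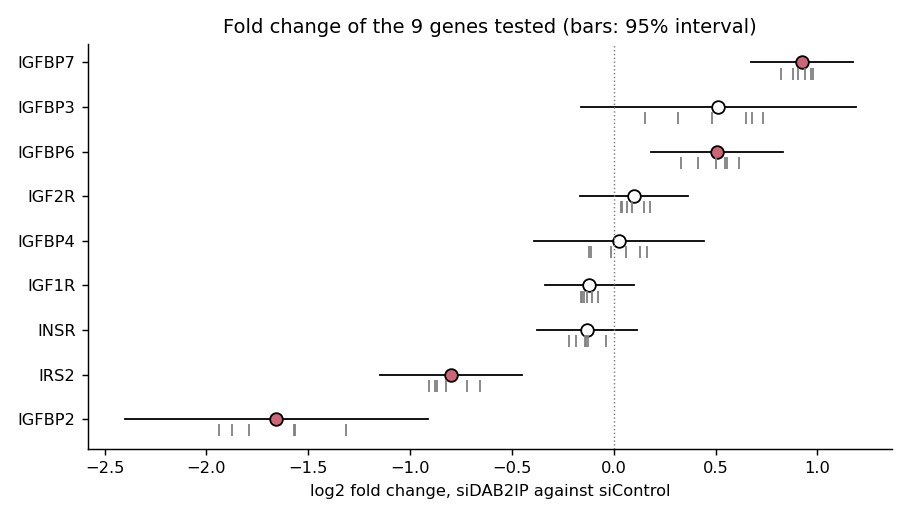
Log2 fold change of the 9 genes tested, siDAB2IP against siControl, with the 95% interval as a bar and gray ticks for the 6 fits that each left out 1 library. Filled points passed the test. The interval of IGFBP7 lies from 0.67 to 1.18 and that of IGFBP2 from −2.40 to −0.91, and those of IGF1R, IGF2R and INSR include 0.

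The binding protein genes were also added up, since they share ligands. Their summed level was 114, 119 and 103 FPKM in siControl and 149, 184 and 146 FPKM in siDAB2IP. No siControl library reached the lowest siDAB2IP library. The sum contains IGFBP6 and IGFBP7, both called higher, so this gap is not a result apart from theirs. IGFBP6 supplied 75.7 ± 1.95% of the sum in siControl and 74.9 ± 5.52% in siDAB2IP (SD, n = 3), with overlapping ranges. The share of IGFBP7 was 14.8 ± 1.64% and 19.9 ± 4.40%, also with overlap, and that of IGFBP2 was 3.80 ± 0.749% and 0.844 ± 0.404%, without overlap. The ratio of IGFBP7 to IGFBP2 in FPKM was 3.33, 3.26 and 5.65 in siControl and 15.9, 18.1 and 57.0 in siDAB2IP. IGFBP7 and IGFBP2 had the largest rise and the largest fall among the members, so a gap between groups in their ratio follows from that choice. These sums and ratios were not tested, and siDAB2IP replicate 3, with the lowest IGFBP2, gave the highest ratio.

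The 3 receptor genes stayed below the threshold. IGF1R, the signaling receptor of both IGFs, lies on the plus strand at chr15:98648539-98964530 and had 289, 282 and 302 CPM in siControl and 281, 271 and 251 CPM in siDAB2IP. All siDAB2IP values were lower than all siControl values, by a small margin. Its log2 fold change was −0.12 (SE 0.10, 95% interval −0.34 to 0.10, adjusted p = 0.456), and an exact two-sided permutation test gave p = 0.1, as low as such a test can go with 3 libraries in each group.

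INSR, the insulin receptor gene, lies on the minus strand at chr19:7112255-7294034. The INSR level was 56.6, 60.0 and 61.1 CPM in siControl and 60.5, 54.9 and 46.9 CPM in siDAB2IP. The groups overlapped through siDAB2IP replicate 1. The log2 fold change was −0.13 (SE 0.11, 95% interval −0.38 to 0.12, adjusted p = 0.477). The ratio of IGF1R to INSR in FPKM was 3.82, 3.52 and 3.71 in siControl and 3.48, 3.70 and 4.01 in siDAB2IP, with overlap.

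IGF2R, which also sorts lysosomal enzymes, lies on the plus strand at chr6:159969099-160113507. Its level was 640, 639 and 768 CPM in siControl and 684, 743 and 768 CPM in siDAB2IP. Replicate 3 was at the same level in both groups. Its log2 fold change was 0.10 (SE 0.12, 95% interval −0.16 to 0.37, adjusted p = 0.620). An intron of IGF2R holds the pseudogene AL353625.1, which averaged 5.40 CPM in siControl and 4.47 CPM in siDAB2IP, and the antisense gene AIRN had 1 count in all. The ratio of IGF2R to IGF1R in FPKM was 1.73, 1.77 and 1.99 in siControl and 1.90, 2.14 and 2.39 in siDAB2IP, with overlap. For each of the 3 receptor genes, changes within its own 95% interval cannot be told from none with these libraries.

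IRS2, the docking protein that links both receptors to phosphoinositide 3-kinase, fell. It lies on the minus strand at chr13:109752698-109786568, next to the promoter window shown above. Its counts were 560, 657 and 674 in siControl and 395, 397 and 276 in siDAB2IP. On the CPM scale these are 34.9, 30.5 and 39.6 against 22.3, 22.0 and 16.0. Every siDAB2IP library lay below every siControl library, and replicate 3 was the highest of siControl and the lowest of siDAB2IP. The mean fell from 35.0 ± 4.54 to 20.1 ± 3.54 CPM (SD, n = 3), or to 57.4% of siControl, with a log2 fold change of −0.80 (SE 0.16, 95% interval −1.15 to −0.45, adjusted p = 0.0106). The call held when any 1 library was left out, with log2 fold changes of −0.91 to −0.66. IRS1, which shares the docking role, averaged 40.8 CPM in siControl and 41.6 CPM in siDAB2IP (log2 fold change 0.03, adjusted p = 0.956). The nearest protein-coding gene after IRS2, the collagen gene COL4A1, lies 362394 bases away and fell as well (log2 fold change −0.78, adjusted p = 0.0428).

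**Figure D3:**
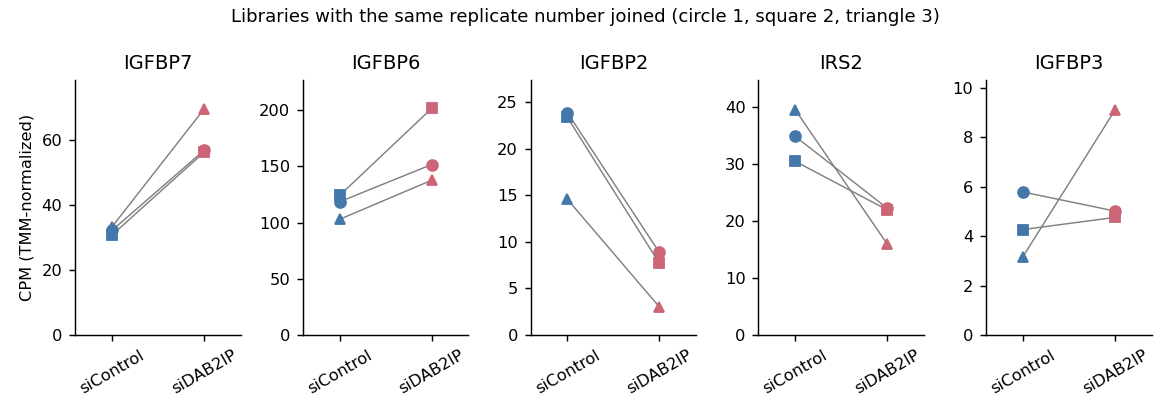
CPM of IGFBP7, IGFBP6, IGFBP2, IRS2 and IGFBP3 in the 6 libraries, with libraries of the same replicate number joined by a line (axes start at 0 and differ between genes). The lines of IGFBP7 and IGFBP6 go up and those of IGFBP2 and IRS2 go down in all 3 replicates, whereas IGFBP3 goes from 3.17 to 9.10 CPM in replicate 3 and stays within the siControl range in the other replicates.

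Read by replicate number, the log2 ratio of siDAB2IP to siControl was 0.82, 0.87 and 1.06 for IGFBP7 and 0.36, 0.70 and 0.42 for IGFBP6. It was −1.43, −1.60 and −2.27 for IGFBP2 and −0.65, −0.47 and −1.31 for IRS2. Replicate 3 thus had the largest change in IGFBP7, IGFBP2 and IRS2. With both replicate 3 libraries left out, these 3 genes kept their direction and their call.

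The ligand genes themselves were near or at the limit of detection. Of the list of 6 ligand and complex genes (IGF1, IGF2, INS, IGFBP1, IGFALS and IGFBPL1), none was tested. No library held more than 1 count of IGF1, 3 of IGFBP1 or 2 of IGFALS. INS, IGFBPL1 and both gene entries named IGF2 had no counts in any library. How the counting treated reads shared by overlapping genes is not given in the sources used here, so these zeros apply to reads assigned to a gene. The deposited tables measure RNA of the cells, not the insulin and serum proteins of the medium.

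Of 10 genes for IGFBP proteases and their inhibitors 9 were tested, 1 rose, 1 fell and 7 did not pass, so 11.1% were called in each direction, where 6.55% of all genes tested rose and 7.65% fell. With the replicate number as a block, 2 rose and 3 fell. Over all genes, 1479 rose and 1754 fell with the block, against 1011 and 1181 without it. PLAU, the urokinase gene, rose from 85.2 ± 4.08 to 143 ± 14.3 CPM (SD, n = 3, log2 fold change 0.74, SE 0.10, adjusted p = 0.00269). MMP7, a metalloproteinase gene, fell from 1.96 ± 0.491 to 0.599 ± 0.321 CPM (log2 fold change −1.69, adjusted p = 0.0297). No gene of this list fell without siControl replicate 1, siControl replicate 2 or siDAB2IP replicate 1, where 752, 459 and 856 of all genes fell. PAPPA, the protease of IGFBP4, averaged 22.4 CPM in siControl and 29.2 CPM in siDAB2IP (adjusted p = 0.461). STC2, an inhibitor of PAPPA (adjusted p = 0.396), and HTRA1, a serine protease gene (adjusted p = 0.195), did not pass either. The median log2 fold change of the 9 genes was −0.24.

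Downstream of the receptors, the list of 43 genes for insulin and IGF signal transduction gave falls and no rises in the test used throughout. Of these genes 41 were tested, and IRS4 and INSRR had at most 3 counts in any library. With edgeR, 0 rose and 9 fell (22.0% of the 41, where 7.65% of all genes tested fell), and 32 did not pass. At an unadjusted p under 0.05, 5 were higher and 11 lower, where 14.5% of all genes tested were higher and 15.5% lower at that level. DESeq2 gave 0 higher and 8 lower, and edgeR with the replicate number as a block gave 2 higher and 10 lower. Over all genes, DESeq2 called 1098 higher and 1374 lower, and the block 1479 and 1754, against 1011 and 1181 in the main fit. The median log2 fold change was −0.11, with 17 genes above 0 and 24 below. The count of 9 depended on single libraries: omitting replicate 1, 2 or 3 of siControl left 3, 4 or 3 genes, and omitting replicate 1, 2 or 3 of siDAB2IP left 5, 4 or 9. Over all genes, the falls in these 6 fits were 752, 459 and 650 for siControl and 856, 1019 and 1352 for siDAB2IP. Rises appeared in some alternatives, 3 without siDAB2IP replicate 3 and 3 with scaling by library size only, and 2 with both replicate 3 libraries left out. In these settings 1172, 1209 and 1059 of all genes rose.

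The genes that fell include positive and negative parts of the pathway. PIK3R1, the regulatory subunit gene of phosphoinositide 3-kinase that binds IRS proteins, fell from 199, 206 and 231 CPM in siControl to 149, 133 and 121 CPM in siDAB2IP (log2 fold change −0.66, SE 0.11, adjusted p = 0.00541). The kinase gene AKT1 fell from 149 to 116 CPM (log2 fold change −0.37, adjusted p = 0.0314). GSK3B, a kinase that AKT inhibits, fell from 76.1 to 50.7 CPM (log2 fold change −0.58, adjusted p = 0.00541). Others restrain the pathway or are known to mark its receptors and docking proteins for removal. Among them, PTPN1, a phosphatase gene whose product acts on the insulin receptor, fell (log2 fold change −0.47, adjusted p = 0.0168). GRB10, an adaptor that inhibits both receptors, fell from 63.2 to 44.8 CPM (log2 fold change −0.50, adjusted p = 0.0253). SOCS3, a feedback inhibitor of cytokine and insulin signals, fell from 11.5 to 4.04 CPM (log2 fold change −1.50, adjusted p = 0.0419). The ubiquitin ligase genes CBL and NEDD4 had log2 fold changes of −0.53 (adjusted p = 0.0235) and −0.37 (adjusted p = 0.0230). CBL shares 509 exonic bases with MCAM on the opposite strand, which averaged 41.0 CPM in siControl and 74.0 CPM in siDAB2IP.

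**Figure D4:**
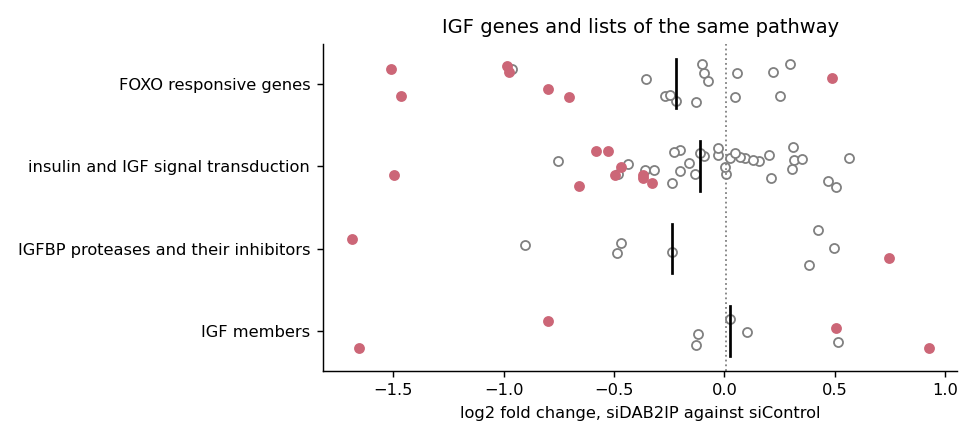
Log2 fold change of each tested gene of the members and of 3 lists of the same pathway, siDAB2IP against siControl, with filled points for genes past the threshold, black bars at the median of each list and a dotted line at the median of all genes (0.01). In the signal transduction list the 9 filled points all lie below 0, and in the FOXO list 6 of 7 do.

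FOXO factors are held back by AKT, and INSR and IRS2 are themselves known FOXO targets, so a list of 25 FOXO responsive genes was counted too. Of these 21 were tested, 1 rose (4.76%, where 6.55% of all genes tested rose), 6 fell (28.6%, where 7.65% fell) and 14 did not pass. The list includes the members INSR and IRS2, and the fall of IRS2 reported above is 1 of the 6. The median log2 fold change was −0.22. GADD45A, a growth arrest gene, rose from 26.0 to 36.4 CPM (log2 fold change 0.49, adjusted p = 0.0207). Beside IRS2, the genes that fell were SOD2, TNFSF10, BCL6, FBXO32 and SESN3. The mitochondrial superoxide dismutase gene SOD2 fell from 1599 to 580 CPM (log2 fold change −1.46, adjusted p = 0.00369). TNFSF10, which encodes the death ligand TRAIL, fell from 9.01 to 3.16 CPM (log2 fold change −1.51, adjusted p = 0.00651). BCL6, a transcriptional repressor gene, fell from 212 to 107 CPM (log2 fold change −0.99, adjusted p = 0.00717). FBXO32, the gene of an E3 ligase subunit of muscle atrophy, fell from 88.7 to 45.2 CPM (log2 fold change −0.97, adjusted p = 0.00747), and SESN3, an inhibitor of mTOR, fell from 10.1 to 6.19 CPM (log2 fold change −0.70, adjusted p = 0.0285). SOD2 shares 845 exonic bases with a second gene entry of the same name on the same strand, which had 2 counts in all, and 298 with WTAP on the opposite strand (110 CPM in siControl, 62.1 CPM in siDAB2IP), and BCL6 shares 318 with the antisense gene AC072022.2 (17.7 and 8.66 CPM). SOD2, TNFSF10 and BCL6 are known to answer to factors other than FOXO as well. With any 1 siControl library left out no gene of this list rose, without siDAB2IP replicate 3 it was 3 genes, and 5 or 6 genes fell in each omission. Over all genes, 434, 264 and 398 rose without siControl replicate 1, 2 and 3, and 1172 without siDAB2IP replicate 3. The falls over all genes ranged from 459 to 1352 in these single omissions.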

How the data were processed

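The libraries were prepared and sequenced by Novogene on an Illumina platform with paired ends. The authors deposited 2 tables: gene counts, which are whole numbers without normalization, and FPKM, in which the authors divided counts by gene length and a library total. The submitters' processing notes list STAR 2.6.1d, featureCounts 1.5.0-p3, DESeq2 1.20.0, edgeR 3.24.3 and hg38, without parameters, and the strand setting is not given in the sources used here. All 58735 genes had the start, end and strand of GENCODE 29 (GRCh38), and coordinates are those of the tables.

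The main test used edgeR 4.0.16 under R 4.3.3 (filterByExpr with the groups, TMM, glmQLFit and glmQLFTest, Benjamini-Hochberg over 15430 genes, no covariate), and the scripts were tested on simulated counts. Standard errors and 95% intervals follow from its F statistic. CPM is TMM-normalized. Promoter windows are from RefSeq (GRCh38.p14).

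The 10 members and the lists were chosen with earlier results of these data known, so no list was tested as a set. Named genes are the members, DAB2IP, list genes that were called or had at most 3 counts in every library, genes that overlap or neighbour a member, and the 3 genes closest in pattern to the member with the smallest p. A result on a listed gene is not reported here. IRS1, PAPPA, STC2, HTRA1 and the genes overlapping CBL, SOD2 and BCL6 were named after their values were seen, as were the cell type markers with values.

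Both groups carry replicate numbers 1 to 3. Deviations from the group means correlated across genes at 0.26, 0.15 and 0.25 for equal numbers and at −0.28 to 0.02 for unequal ones, so the numbers appear to pair the libraries, although the labels do not say what they stand for. The reported values are from the fit without the block, and the replicate block is an alternative. Library names share a first letter within a number.

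Alternatives were DESeq2 1.42.0, RLE or library-size scaling, no filter or at least 10 counts in every library, adjusted p under 0.01, the replicate block, limma 3.58.1 on log2(FPKM + 1) or log2(FPKM + 0.1) at a mean FPKM of 1 or more or on all genes with a count, and omission of each library.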

Additional observations from a re-analysis of the deposited data

How the results depend on the processing

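IGFBP7 rose in every alternative run, also at an adjusted p under 0.01, and IGFBP2, IGFBP6 and IRS2 kept their direction in every alternative run. The 2192 changed genes of the main setting became 622 at an adjusted p under 0.01, 1417 with limma on log2(FPKM + 0.1), 378 with limma on log2(FPKM + 1) when every gene with a count was kept, and 723 (without siControl replicate 2) to 2524 on omission of single libraries. At an adjusted p under 0.01, 1 member was higher and 0 were lower. With limma on log2(FPKM + 1), on log2(FPKM + 0.1) and on all genes, 1 member was higher in each, since IGFBP6 had adjusted p of 0.0862, 0.0887 and 0.210. On all genes 0 were lower, since IGFBP2 had 0.0973 and IRS2 0.0913. Omission of single libraries gave 1 to 2 members higher and 1 to 2 lower.

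For the pathway lists together, the 2 genes higher became 5 with library size only, 4 without a filter, 1 at an adjusted p under 0.01, 1 with limma on all genes, 6 with both replicate 3 libraries left out (added after the data had been seen), and 1 to 8 on single omissions. Over all genes, the 1011 higher became 1209 with library size only, 1245 without a filter and 254 at an adjusted p under 0.01. They became 176 with limma on all genes, 1059 with both replicate 3 libraries left out and 264 to 1172 on single omissions. The 16 genes lower, the member IRS2 among them, became 6 at an adjusted p under 0.01, 10 with limma on log2(FPKM + 0.1), 2 with limma on all genes and 8 to 17 on single omissions. Of all genes tested, the 1181 lower became 368, 758 and 202 in the first 3 of these settings and 459 to 1352 on single omissions. With the replicate block, 3233 genes in all were changed and 5 pathway genes were higher, and the block changed no call of a member. By list, the genes higher and lower were then 2 and 3 (proteases), 2 and 10 (signal transduction) and 1 and 8 (FOXO). IGFBP4 changed sign within a range of −0.12 to 0.16 on single omissions, and IGFBP3 was −0.032 without both replicate 3 libraries. The cause of these shifts was not tested. A gene at 3 counts or fewer, such as IGF1 or IGFBP1, could not be compared at this depth.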
